A study of Mus musculus with 8 samples.

Results

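The genes described here are 9 MHC class I heavy chains of the mouse, H2-K1, H2-D1, H2-Q4, H2-Q6, H2-Q7, H2-Q10, H2-T22, H2-T23 and H2-M3, picked by gene symbol among the 21434 genes of the count table. All 9 were found, and 8 of them were among the 12820 genes that passed the filter on low counts, the exception being H2-Q10. RNA-seq was performed on pancreatic tissue of 8 untreated mice, 18 weeks old. The Bach2KO group consisted of 4 mice homozygous for the C57BL/6N-Bach2tm1b(EUCOMM)Wtsi/leg allele, and the Bach2WT group of 4 wild type animals of that strain. In both groups, mice 1 and 2 were females and mice 3 and 4 were males. Bach2 encodes a transcriptional repressor known from lymphocytes. The allele is carried in the germline, so the lymphocytes and all other cells of the Bach2KO mice carried it as well as the pancreas. The study kept its colonies in more than one animal facility, and which mouse came from which is not given in the sources used here. The comparison asks whether the transcripts of the class I molecules differed between untreated mice of the 2 genotypes.

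MHC class I molecules are heavy chains that pair with the light chain beta-2 microglobulin, encoded by B2m, and show peptides from inside the cell to CD8+ T cells and natural killer cells. The classical heavy chains H2-K and H2-D are carried by nearly all nucleated cells. The nonclassical chains are less variable between strains and have more specialised roles. Transcription of the family is known to respond to interferons and to NF-kappaB, and to be driven by the transactivator NLRC5, which acts through a conserved group of promoter elements called X1, X2 and Y.

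All 9 genes lie on chromosome 17. In the coordinates of the deposited table (GRCm39), H2-K1 (ENSMUSG00000061232, minus strand) is found at chr17:34214991-34219321, at one end of the complex. H2-D1 (ENSMUSG00000073411) lies at chr17:35481706-35486475 and H2-Q4 (ENSMUSG00000035929) at chr17:35598593-35604266, both on the plus strand. They are followed by H2-Q6 (chr17:35643826-35649031), H2-Q7 (chr17:35658131-35662749) and H2-Q10 (chr17:35780986-35785460). H2-T23 (ENSMUSG00000067212, chr17:36340665-36343747) and H2-T22 (ENSMUSG00000056116, chr17:36348020-36353639) are neighbours on the minus strand. H2-M3 (chr17:37581111-37585375) stands at the other end.

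The promoters are shown because the family is known to be regulated through elements that lie there. The 5 genes with the highest counts were chosen. Each line gives the 200 bases before the transcription start, 5′ to 3′ on the strand of the gene, from RefSeq on GRCm38.p6, with matches to the motifs below in capitals.
H2-K1: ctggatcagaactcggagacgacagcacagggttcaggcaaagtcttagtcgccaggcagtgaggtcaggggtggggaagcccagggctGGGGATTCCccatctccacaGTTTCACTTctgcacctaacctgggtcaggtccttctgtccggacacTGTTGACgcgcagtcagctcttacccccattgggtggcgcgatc
H2-D1: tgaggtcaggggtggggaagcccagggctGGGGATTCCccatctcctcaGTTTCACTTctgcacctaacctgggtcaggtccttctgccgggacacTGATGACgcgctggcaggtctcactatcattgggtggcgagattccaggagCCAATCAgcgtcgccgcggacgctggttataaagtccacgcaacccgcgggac
H2-Q4: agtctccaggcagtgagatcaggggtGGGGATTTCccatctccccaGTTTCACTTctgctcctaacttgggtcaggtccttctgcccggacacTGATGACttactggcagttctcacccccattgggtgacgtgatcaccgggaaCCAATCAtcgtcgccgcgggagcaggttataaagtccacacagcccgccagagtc
H2-T23: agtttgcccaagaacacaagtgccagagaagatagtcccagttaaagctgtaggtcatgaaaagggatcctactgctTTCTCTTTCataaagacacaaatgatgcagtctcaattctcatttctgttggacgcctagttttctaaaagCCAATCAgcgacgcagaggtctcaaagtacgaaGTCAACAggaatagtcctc
H2-T22: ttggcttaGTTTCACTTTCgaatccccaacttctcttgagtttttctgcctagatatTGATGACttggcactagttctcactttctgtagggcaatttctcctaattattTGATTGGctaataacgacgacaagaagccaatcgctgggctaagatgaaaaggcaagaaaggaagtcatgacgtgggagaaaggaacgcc
All promoters of the RefSeq table were searched for 5 motifs, on both strands and over 250 bases before the start. The letters of the motifs were set with these promoters in view. They were AANNGAAAC and GAAANNGAA, a short and a long form of the interferon-regulatory factor (IRF) element that can overlap each other, GGGGATTNC for a kappaB-type element, TGNTGAC for an X2-type element and CCAATCA for a Y-type element. Among 27025 promoters, the short IRF form was found in 4.992%, the long IRF form in 7.156%, the kappaB-type element in 0.6586%, the X2-type element in 11.71% and the Y-type element in 7.648%.

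The promoters of H2-D1, H2-Q4, H2-Q6 and H2-Q7 held the same 4 elements in the same order: kappaB-type, short IRF form, X2-type and Y-type. In H2-D1 they began 171, 151, 104 and 53 bases before the start, and in H2-Q4 174, 154, 107 and 55 bases before it. H2-K1 held the kappaB-type, IRF and X2-type letters 111, 91 and 44 bases before the first of its 2 listed starts, with no Y-type match in this window. H2-T22 had no kappaB-type match, but held both IRF forms, which overlap, an X2-type match and a Y-type match on the opposite strand. H2-T23 held the long IRF form 123 bases before the start and a Y-type match 52 bases before it. Its X2-type match, on the opposite strand, lay nearer to the start than the Y-type match, at 19 bases. At least 4 of the 5 motifs were present in 10 promoters of the genome (0.037%), of which 5 belonged to the genes described here, H2-T22 with both overlapping IRF forms counted. Because the letters were set with these promoters in view, this count is a description and no test. A match gives the letters in this window and does not show that a protein was bound there.

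The libraries held 72299745 to 172029360 counts on genes. The knocked-out gene itself could not check the genotype labels, since Bach2 had few counts in both, from 3 to 16 per Bach2KO library and from 4 to 31 per Bach2WT library. Most counts in this tissue come from digestive enzymes. Levels are therefore given as CPM, the counts scaled to a common library size after TMM normalisation. The TMM factors were 1.05 to 1.18 in Bach2KO mice, 1.10 in Bach2WT mouse 1 and 0.826 to 0.859 in Bach2WT mice 2 to 4. CPM differences between the genotypes therefore depend on this scaling. Since the totals fell into 2 classes, the genotypes were also compared within the 4 deeper libraries (137668139 to 172029360 counts) and within the 4 shallower ones (72299745 to 84052687 counts), each set holding a female and a male of both genotypes.

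No heavy chain passed an adjusted p of 0.05 in edgeR's quasi-likelihood test with Benjamini-Hochberg adjustment over all genes, where 0.00780% of all genes tested were called. Of the 8 genes tested, 7 had a higher fitted level in Bach2KO mice, against 54.7% of all genes tested. An unadjusted p under 0.05 was reached by 6 of these 7, against 3.90% of all genes tested in that direction. The CPM values of 4 heavy chains, H2-K1, H2-Q4, H2-Q6 and H2-T23, were higher in every Bach2KO mouse than in any Bach2WT mouse, which was the case for 2.57% of all genes tested. The median log2 fold change was 0.98 over the heavy chains tested and 0.05 over all genes tested. H2-Q6 and H2-Q7 are included here, although they had few counts in Bach2WT mice and passed the filter mainly through Bach2KO libraries. With at least 10 counts in every library, 5 heavy chains were left, with a median of 0.54. Of these, 4 were higher at an unadjusted p under 0.05 in edgeR, against 454 of all 9867 genes tested with that filter. With DESeq2, H2-Q4 (adjusted p = 0.0101) and H2-T23 (adjusted p = 0.0277) were called, together with 0.335% of all genes in the same direction.

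**Figure D1:**
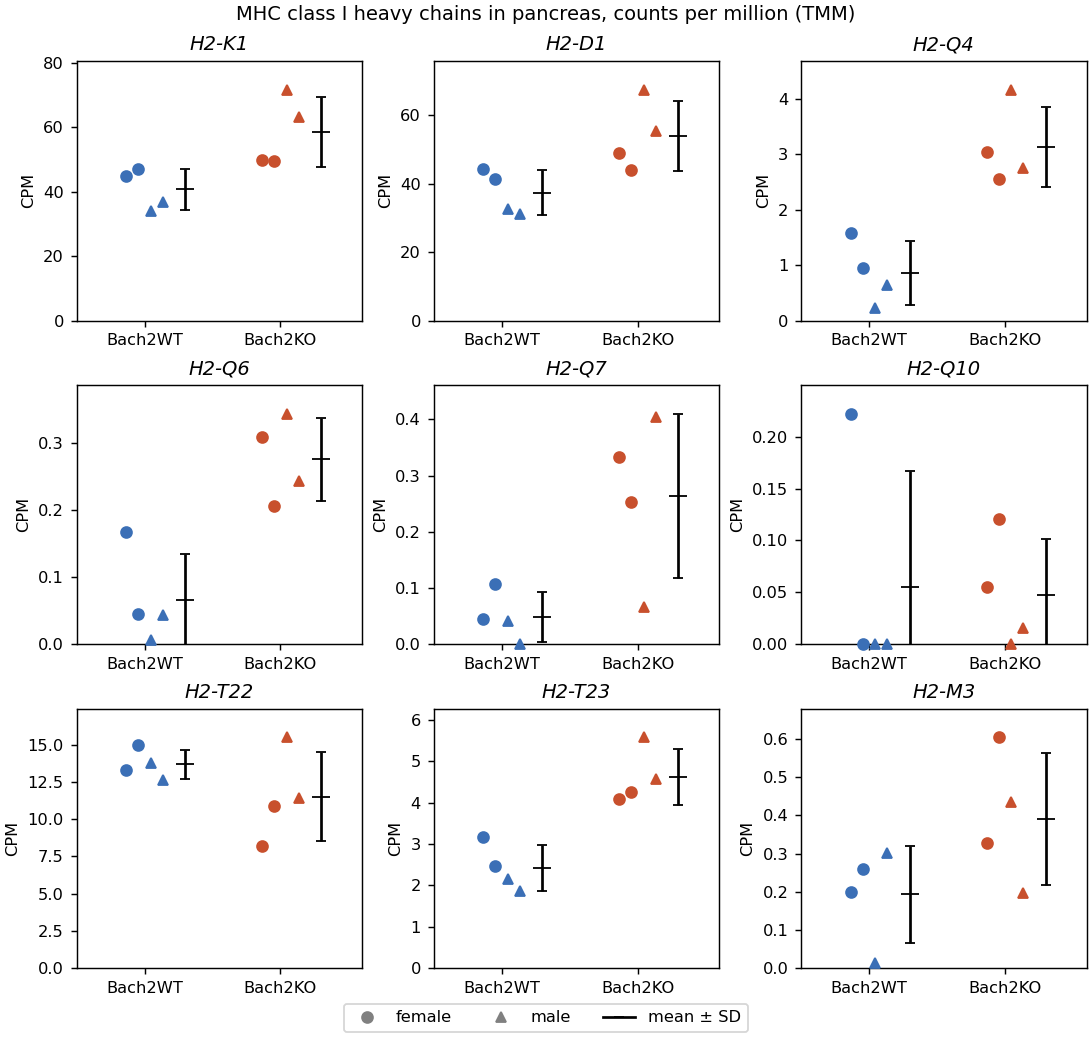
Level of each heavy chain in the 8 libraries, in CPM on a linear axis from 0, with females as circles, males as triangles and the mean with its SD (bars cut at 0) for the 4 mice of a genotype. H2-K1, H2-Q4, H2-Q6 and H2-T23 are higher in all 4 Bach2KO mice than in all 4 Bach2WT mice, while H2-T22 overlaps.

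H2-K1 and H2-D1 are the classical class I chains of this strain. H2-K1 had 49.9, 49.3, 71.5 and 63.1 CPM in Bach2KO mice 1 to 4, and 44.9, 47.0, 34.0 and 36.8 CPM in Bach2WT mice 1 to 4. The groups did not overlap, but the female Bach2KO mice lay only just above the female Bach2WT mice, and the distance was set by the males. The mean was 58.5 ± 10.8 against 40.7 ± 6.26 CPM (SD, n = 4 each), a fitted log2 fold change of 0.52 with an SE of 0.17 (edgeR adjusted p = 0.539).

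H2-D1 gave nearly the same picture. Its level was 48.9, 44.0, 67.4 and 55.3 CPM in Bach2KO mice and 44.4, 41.4, 32.5 and 31.1 CPM in Bach2WT mice. The groups overlapped at one place, since Bach2KO mouse 2 lay just below Bach2WT mouse 1. The means were 53.9 ± 10.11 and 37.4 ± 6.51 CPM (SD, n = 4 each), with a log2 fold change of 0.53 and an SE of 0.18 (edgeR adjusted p = 0.547). The ratio of H2-K1 to H2-D1, computed per length from FPKM, was 0.953 ± 0.0484 in Bach2KO mice and 0.960 ± 0.0693 in Bach2WT mice, and in single mice it stayed between 0.888 and 1.04.

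H2-T23 encodes the heavy chain of Qa-1, which presents leader peptides of other class I chains to the CD94/NKG2A receptor of natural killer cells. The gene had 4.09, 4.25, 5.57 and 4.56 CPM in Bach2KO mice and 3.16, 2.47, 2.15 and 1.87 CPM in Bach2WT mice. All Bach2KO values lay above all Bach2WT values, in females as well as in males. With means of 4.62 ± 0.666 and 2.41 ± 0.557 CPM (SD, n = 4 each), the log2 fold change was 0.93 with an SE of 0.21 (edgeR adjusted p = 0.351).

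H2-Q4 is a nonclassical gene of the Q region. It had 3.05, 2.55, 4.16 and 2.75 CPM in Bach2KO mice, against 1.59, 0.952, 0.223 and 0.648 CPM in Bach2WT mice. Again no Bach2WT mouse reached the lowest Bach2KO mouse, and the lowest value belonged to Bach2WT mouse 3 with 32 counts. The means of 3.13 ± 0.719 and 0.853 ± 0.574 CPM (SD, n = 4 each) corresponded to a log2 fold change of 1.88 with an SE of 0.44 (edgeR adjusted p = 0.352).

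H2-Q6 and H2-Q7 encode chains of the Qa-2 type, which can be anchored in the membrane by a lipid. Both were near the limit of detection. H2-Q6 had 50, 17, 26 and 47 counts in Bach2KO mice and 15, 6, 1 and 3 counts in Bach2WT mice, with no overlap of the CPM values (log2 fold change 2.08, SE 0.88, edgeR adjusted p = 0.646). H2-Q7 had 54, 21, 5 and 78 counts in Bach2KO mice and 4, 14, 6 and 0 counts in Bach2WT mice (log2 fold change 2.39, SE 0.95, edgeR adjusted p = 0.627). The log2 fold change of H2-Q6 was 3.11 without Bach2WT mouse 1 and 1.68 without Bach2WT mouse 3, and that of H2-Q7 was 3.09 without Bach2WT mouse 2. The H2-Q7 values overlapped, because Bach2KO mouse 3 lay below Bach2WT mouse 2. The count of 0 in Bach2WT mouse 4 allows a level of up to 0.0432 CPM (3 counts, counting error only). In transcripts of GENCODE release M21, 5.992% of the 150-base windows of H2-Q6 and 5.897% of those of H2-Q7 occur in another gene, H2-Q6 and H2-Q7 sharing windows with each other and H2-Q7 also with H2-Q10. How the counting treated such reads is not given in the sources used here, so the split of counts between these genes is uncertain. For H2-K1, H2-Q4 and H2-M3 no such window was found, and for H2-D1, H2-T22 and H2-T23 the share was between 0.331% and 1.351%.

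H2-M3 presents peptides that begin with N-formylmethionine, as bacterial and mitochondrial proteins do. It had 53, 50, 33 and 38 counts in Bach2KO mice and 18, 34, 2 and 21 counts in Bach2WT mice. After normalisation Bach2KO mice 1 to 3 lay above all Bach2WT mice, and Bach2KO mouse 4 lay below 3 of them. The means were 0.391 ± 0.172 and 0.194 ± 0.127 CPM (SD, n = 4 each), with a log2 fold change of 1.02 and an SE of 0.76 (edgeR adjusted p = 0.821), and without Bach2WT mouse 3 it was 0.61. H2-Q10 encodes a soluble chain that the liver secretes. It had 9, 10, 0 and 3 counts in Bach2KO mice and 20, 0, 0 and 0 counts in Bach2WT mice. It did not pass the filter on low counts, so it was not tested and no fold is given. Of 6 hepatocyte markers in the table, 4 were tested and none had an unadjusted p under 0.05 in edgeR, and 3.434% of the 150-base windows of H2-Q10 occur in another gene.

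H2-T22 was the exception among the heavy chains tested, with a lower fitted level in Bach2KO mice on the TMM scale. Its product binds no peptide and is recognised directly by a subset of gamma-delta T cells. The gene had 8.23, 10.9, 15.5 and 11.4 CPM in Bach2KO mice and 13.3, 15.0, 13.8 and 12.6 CPM in Bach2WT mice. Bach2KO mice 1, 2 and 4 lay below all Bach2WT mice and Bach2KO mouse 3 lay above them. The means were 11.5 ± 3.00 and 13.7 ± 0.994 CPM (SD, n = 4 each), with a log2 fold change of -0.25 and an SE of 0.19 (edgeR adjusted p = 0.823). The log2 fold change was -0.45 without Bach2KO mouse 3 (edgeR adjusted p = 0.537) and -0.12 without Bach2KO mouse 1 (edgeR adjusted p = 0.986). The direction of so small a difference depends on the scaling, and a fit on plain library totals was not run.

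Since H2-T22 had a lower fitted level on the TMM scale, unlike the other chains tested, the makeup of the class I transcripts was looked at in each library. Shares were computed from the deposited FPKM values, which are counts per length of gene, summed over the 9 genes. The sum was 39.3, 38.8, 58.1 and 48.1 FPKM in Bach2KO mice and 37.5, 37.3, 28.8 and 29.2 FPKM in Bach2WT mice, so that all Bach2KO mice lay above all Bach2WT mice by a small margin in the females and a large one in the males.

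The order of the levels was much the same in all mice. In Bach2WT mice, H2-D1 (14.3 ± 2.39 FPKM) and H2-K1 (13.6 ± 2.03 FPKM) stood at the top and did not differ beyond their spread. H2-T22 followed with 3.95 ± 0.283 FPKM, H2-T23 with 0.823 ± 0.184 FPKM and H2-Q4 with 0.323 ± 0.215 FPKM (SD, n = 4 each). These steps of the order held in 8 of 8 libraries, Bach2KO mice included, and in the Bach2WT mice the ranges of the neighbours H2-K1, H2-T22, H2-T23 and H2-Q4 did not overlap. Below them came H2-M3 with 0.133 FPKM, H2-Q6 with 0.0309 FPKM, H2-Q10 with 0.0125 FPKM and H2-Q7 with 0.0111 FPKM, whose ranges overlapped from one gene to the next, H2-Q4 and H2-M3 included. H2-K1 ranked between 238 and 279 among 15533 protein-coding genes by FPKM in Bach2KO mice and between 316 and 441 in Bach2WT mice.

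H2-K1 and H2-D1 together made up 86.0% ± 1.25 of the class I FPKM in Bach2KO mice and 84.0% ± 0.736 in Bach2WT mice (SD, n = 4 each), and the ranges overlapped. As shares of the summed CPM, which do not account for gene length, they were 84.7% ± 1.28 and 81.7% ± 1.05 without overlap. The share of H2-T22 was 5.82%, 7.96%, 7.69% and 6.79% in Bach2KO mice and 10.2%, 11.6%, 13.9% and 12.6% in Bach2WT mice. Here the groups did not overlap, which was not the case for the CPM of the same gene. The share of H2-T23 was 3.39% ± 0.206 against 2.47% ± 0.302, and that of H2-Q4 2.54% ± 0.303 against 0.926% ± 0.533 (SD, n = 4 each), both without overlap. Shares of one sum depend on each other, and they are given as a description without a test.

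**Figure D2:**
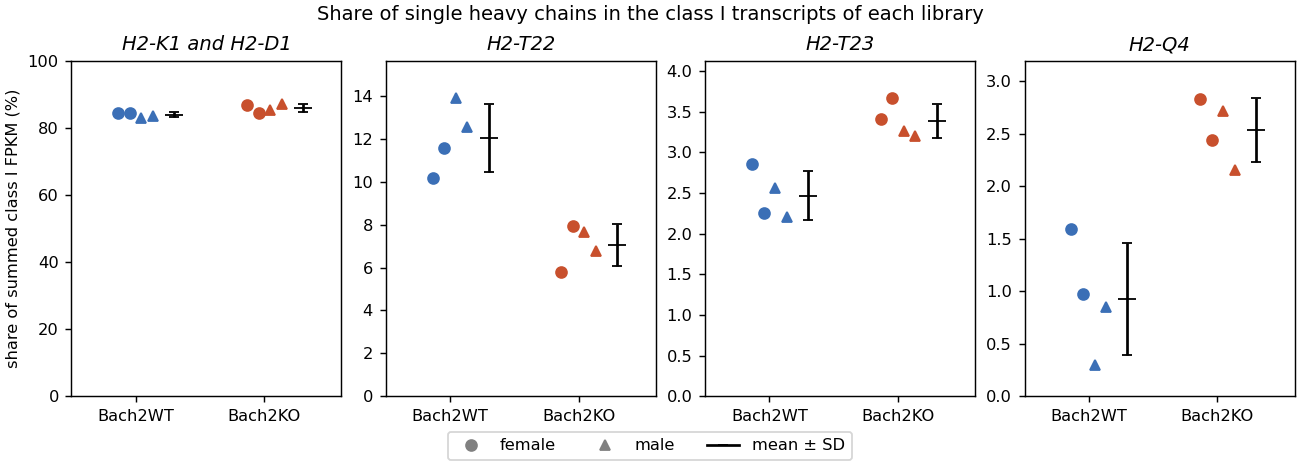
Share of H2-K1 with H2-D1, of H2-T22, of H2-T23 and of H2-Q4 in the summed class I FPKM of each library, in percent on linear axes from 0 that differ between panels, with females as circles, males as triangles and the mean with its SD for 4 mice. The H2-T22 share lies between 5.82% and 7.96% in Bach2KO mice and between 10.2% and 13.9% in Bach2WT mice, while the classical chains together stay between 83.2% and 87.1%.

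A ratio of genes within a library does not depend on the library size. The log2 ratio of H2-K1 to H2-T22, from CPM, was 2.36 ± 0.205 in Bach2KO mice and 1.56 ± 0.194 in Bach2WT mice, and that of H2-D1 to H2-T22 was 2.25 ± 0.242 against 1.44 ± 0.222 (SD, n = 4 each). For H2-T23 the log2 ratio was -1.29 ± 0.199 against -2.53 ± 0.308, and for H2-Q4 -1.87 ± 0.303 against -4.32 ± 1.20. All 4 ratios were higher in every Bach2KO mouse than in any Bach2WT mouse. This separation adds little, since H2-K1, H2-Q4 and H2-T23 did not overlap in CPM either and H2-T22 was the chain with the lower fitted level. The ratios were formed after the values of H2-T22 had been seen and were not tested. How often other gene pairs separate in this way was not computed.

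The genotypes were also compared within each sex. In the males, the mean CPM of Bach2KO mice over that of Bach2WT mice was 1.90 for H2-K1, 1.93 for H2-D1, 2.52 for H2-T23 and 7.94 for H2-Q4 (2 mice per genotype). In the females, the same ratios were 1.080, 1.084, 1.48 and 2.202. H2-M3 had nearly the same ratio in males (2.00) and females (2.03). H2-T22 had a ratio of 1.02 in males and 0.676 in females, where both Bach2KO values lay below both Bach2WT values. The interaction of sex and genotype, tested in edgeR with 2 mice per cell, had an unadjusted p under 0.05 for 3 of the 8 genes, against 6.14% of all genes tested. The male minus female difference in log2 fold change was 0.82 for H2-K1, 0.83 for H2-D1 and 1.89 for H2-Q4 (edgeR adjusted p = 0.794 for all 3). It was 0.76 for H2-T23 (edgeR adjusted p = 0.835) and 0.59 for H2-T22 (edgeR adjusted p = 0.864). No gene of the table passed an adjusted p of 0.05 for the interaction in edgeR, where 787 genes had an unadjusted p under 0.05, and DESeq2 called 14 genes, none of them a heavy chain.

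**Figure D3:**
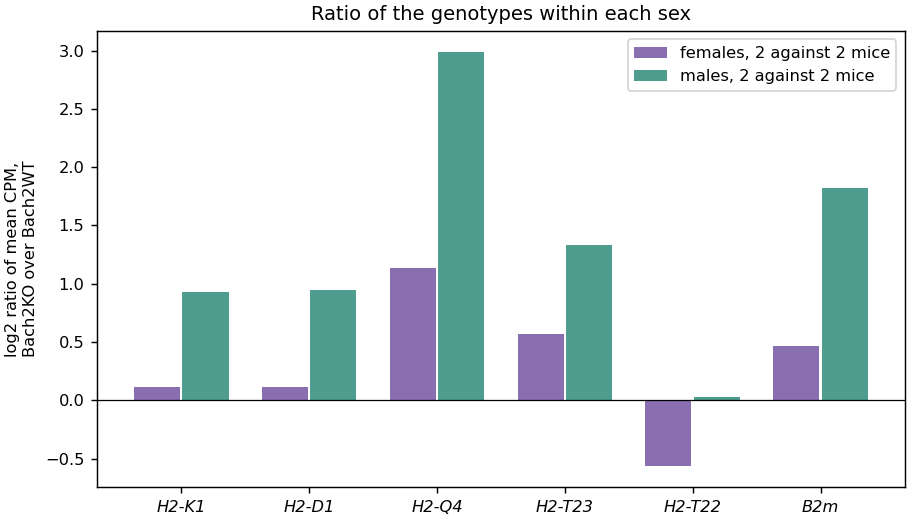
Ratio of the mean CPM of Bach2KO mice to that of Bach2WT mice within females and within males, 2 mice per genotype and sex, as bars on a log2 axis where 0 means equal levels. The bars of H2-K1, H2-D1, H2-Q4, H2-T23 and B2m are taller in males, with a ratio of 1.080 in females and 1.90 in males for H2-K1.

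Sequencing depth was balanced over genotype and sex, and the ratios of H2-K1, H2-D1 and H2-T23 were close to each other in both classes. The ratio of Bach2KO to Bach2WT mice was 1.40 in the deeper and 1.48 in the shallower libraries for H2-K1, 1.41 and 1.48 for H2-D1, and 1.87 and 1.95 for H2-T23 (2 mice per genotype in each class). For H2-Q4 it was 4.93 and 3.00, and for H2-T22 0.682 and 1.02. The rare H2-Q6 gave 10.5 in the deeper and 2.62 in the shallower libraries.

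Heavy chains leave the endoplasmic reticulum only with B2m and a peptide, so the genes of this machinery were examined next. B2m had 22.8, 23.1, 31.2 and 34.6 CPM in Bach2KO mice and 20.3, 13.0, 9.78 and 8.78 CPM in Bach2WT mice. The groups did not overlap, with the smallest distance between the females (log2 fold change 1.11, SE 0.25, edgeR adjusted p = 0.351). On the FPKM scale the summed heavy chains exceeded B2m by a factor of 1.48 ± 0.177 in Bach2KO mice and 2.39 ± 0.536 in Bach2WT mice (SD, n = 4 each), and these ratios overlapped through Bach2WT mouse 1 (1.63).

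Tap1, a subunit of the transporter that carries peptides into the endoplasmic reticulum, had 1.83, 3.08, 4.35 and 3.04 CPM in Bach2KO mice and 1.48, 1.33, 0.835 and 1.19 CPM in Bach2WT mice (log2 fold change 1.34, SE 0.29, edgeR adjusted p = 0.340). Tapbp, which encodes tapasin, the bridge between transporter and heavy chain, had 5.01, 5.95, 7.37 and 6.29 CPM against 4.42, 3.34, 3.53 and 3.38 CPM (log2 fold change 0.75, SE 0.18, edgeR adjusted p = 0.360). Neither gene overlapped between the genotypes. Of 15 partners and peptide loading genes tested, 6 had an unadjusted p under 0.05 and a higher level in Bach2KO mice in edgeR (B2m, Tap1, Tapbp, Tap2, Psmb8 and Psmb9), none a lower level, and none passed the adjusted threshold. The median log2 fold change of the list was 0.30, and 3.90% of all genes tested were higher at that unadjusted p. Psmb8 and Psmb9 encode inducible subunits of the immunoproteasome, with log2 fold changes of 1.18 (SE 0.46) and 1.19 (SE 0.36). Psmb10, the gene of the other inducible subunit, stood at -0.36 (SE 0.22, edgeR adjusted p = 0.780). Its mean level was far higher, at 76.9 CPM in Bach2KO and 98.5 CPM in Bach2WT mice. Psmb8 had means of 1.76 and 0.775 CPM, and Psmb9 of 1.66 and 0.728 CPM. The reason for this distance in level was not tested. The general chaperones Calr (-0.12, SE 0.17), Canx (0.03, SE 0.17) and Pdia3 (0.14, SE 0.23) showed log2 fold changes of less than 1 SE.

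**Figure D4:**
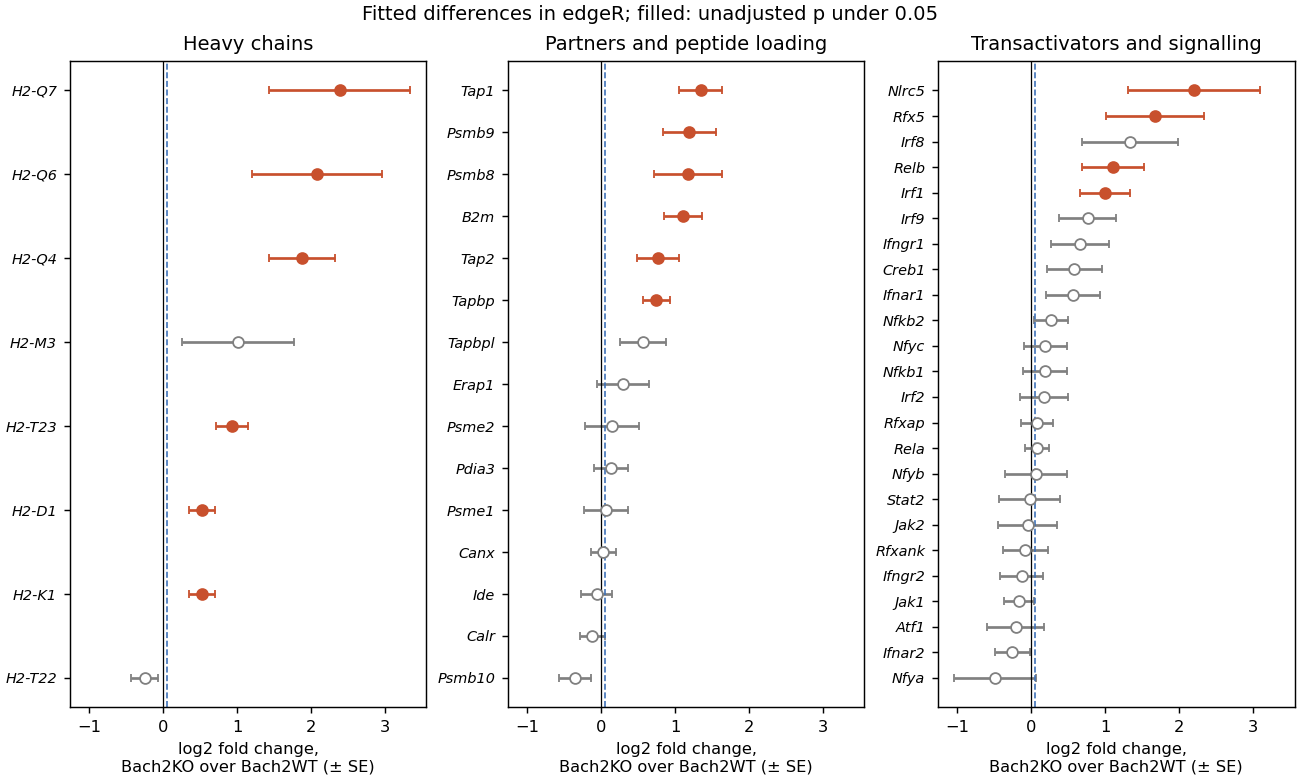
Fitted log2 fold change of Bach2KO over Bach2WT mice with its SE in edgeR for the 8 heavy chains tested, 15 partner and peptide loading genes and 24 transactivator and signalling genes, where filled points have an unadjusted p under 0.05 and the dashed line is the median of all genes tested (0.05). All filled points lie to the right of 0, and H2-T22 lies to the left with -0.25.

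Among 24 genes of class I transactivators, interferon signalling and NF-kappaB, 4 had an unadjusted p under 0.05 and a higher level in Bach2KO mice in edgeR, none a lower level, and none passed the adjusted threshold. The median log2 fold change was 0.18, and 3.90% of all genes tested were higher at that unadjusted p. Nlrc5, the class I transactivator, was rare, with 0.537, 0.362, 0.647 and 0.238 CPM in Bach2KO mice and 0.278, 0.0457, 0.0627 and 0 CPM in Bach2WT mice. The values overlapped between Bach2KO mouse 4 and Bach2WT mouse 1 (log2 fold change 2.196, SE 0.89, edgeR adjusted p = 0.636). Irf1, an interferon-induced activator of class I genes, had 0.933, 1.80, 1.19 and 2.28 CPM against 0.822, 0.846, 0.912 and 0.518 CPM, without overlap (log2 fold change 1.00, SE 0.34, edgeR adjusted p = 0.552). The others were Rfx5 (1.67), which binds the X1 element, and Relb (1.10), an NF-kappaB subunit. Rela, the best known NF-kappaB subunit, stood at 0.07 (SE 0.16).

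Of 16 other class I and class I-like genes found in the table, 8 were tested and none had an unadjusted p under 0.05 in edgeR. Azgp1, a secreted class I-like protein, came nearest with a log2 fold change of 0.89 (edgeR adjusted p = 0.671), followed by H2-Q2 (0.49) and by Fcgrt (0.38), the neonatal Fc receptor. The median log2 fold change of these genes was 0.44. Of 15 genes of receptors that bind class I molecules, only Pirb, an inhibitory receptor of myeloid and B cells, passed the filter on low counts (log2 fold change 0.67, edgeR adjusted p = 0.856). Cd8a, the co-receptor of T cells that recognise class I molecules, was at 0.235, 0.0724, 0 and 0.0155 CPM in Bach2KO mice and at 0.200, 0, 0 and 0 CPM in Bach2WT mice.

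Neighbouring genes on the chromosome were compared as well. Between H2-K1 and H2-M3, the table holds 159 genes, of which 75 were tested and do not carry an H2 symbol. Of these 75, 8 were higher in Bach2KO mice at an unadjusted p under 0.05 in edgeR and 1, Rnf5, was lower (log2 fold change -0.65). Tap1, Tap2, Psmb8 and Psmb9 were among the 8, and so were the complement gene C4b (2.17), Clic1 (0.70), Notch4 (1.04) and Ddr1 (0.42). Over all genes tested, 3.90% were higher at that unadjusted p. The median log2 fold change of the 75 genes was 0.11.

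In bulk tissue, more cells of a type that carries class I molecules and more class I RNA per cell cannot be told apart. Marker genes of other cell types are therefore given beside the heavy chains, and their part in the differences was not tested. For scale, 54.7% of the 12820 genes tested had a higher fitted level in Bach2KO mice. At an unadjusted p under 0.05 in edgeR, 500 of them were higher and 457 lower. Of 7 pan-leukocyte markers, 6 had a higher fitted level in Bach2KO mice, with a median log2 fold change of 0.58, and Cd52 (1.05) had an unadjusted p under 0.05 in edgeR. Ptprc, which encodes CD45, was the one that was not higher, at -0.02 (SE 0.51). Their summed level ranged from 13.6 to 17.2 CPM in Bach2KO mice and from 5.97 to 17.5 CPM in Bach2WT mice. Of 9 T cell markers tested, 8 had a higher fitted level in Bach2KO mice, with a median log2 fold change of 0.91, and none had an unadjusted p under 0.05 in edgeR. Their levels were low, with summed levels of 1.30 to 4.12 CPM in Bach2KO mice and 0.501 to 2.81 CPM in Bach2WT mice. None of the 8 natural killer cell markers passed the filter, and their sum was at most 0.766 CPM in any library.

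The macrophage markers summed to 24.9 to 38.04 CPM in Bach2KO mice and 17.6 to 33.5 CPM in Bach2WT mice. An unadjusted p under 0.05 in edgeR was found for 3 of 10, all higher (Lyz2, C1qb and Mpeg1). Of the 10, 7 had a higher fitted level, while C1qa (log2 fold change -0.64, SE 0.30), Adgre1 (-0.27) and Cd163 (-0.18) had lower ones. The median log2 fold change was 0.51 for the macrophage and 0.51 for the endothelial markers. The endothelial markers summed to 20.3 to 41.7 CPM against 16.0 to 23.9 CPM, with 2 of 10 higher at that level, Cdh5 (log2 fold change 1.07) and Esam (0.60), while Pecam1 stood at 0.52 (edgeR adjusted p = 0.670). Endothelial cells carry much class I on their surface. Both dendritic cell markers tested were at an unadjusted p above 0.05, with sums of 1.27 to 1.88 CPM in Bach2KO mice and 0.822 to 1.17 CPM in Bach2WT mice.

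The remaining marker lists were counted in the same way, at an unadjusted p under 0.05 in edgeR. Of B cell markers 1 of 4 was lower (Fcmr), of plasma cell markers 1 of 6 was lower (Igha), and of lymph node stroma markers 1 of 3 was higher (Ccl21a, log2 fold change 2.13), while Cxcl13 (-1.24) and Fcer2a (-3.04) had lower fitted levels. Of duct cell markers 2 of 8 were higher (Epcam and Krt7), of islet cell markers 1 of 10 was higher (Gcg), and of adipocyte markers 1 of 6 was lower (Plin1). None of 8 stellate cell and fibroblast markers and neither the eosinophil nor the neutrophil marker that could be tested passed. The acinar cell markers, which check the labelled tissue, had summed levels of 528841 to 599955 CPM in Bach2KO mice and 589740 to 789888 CPM in Bach2WT mice, and 5 of 14 were lower. Of the wider list of digestive enzymes, 3 of 37 were higher and 11 lower, against 500 higher and 457 lower of all 12820 genes tested. The acinar sums and the numbers of lower genes rest on the TMM factors, and a higher factor lowers every CPM of a library. These factors were higher in all Bach2KO mice than in Bach2WT mice 2 to 4. The sums are not shares of the counts, since the digestive enzymes summed to 1026800 CPM in Bach2WT mouse 4. Whether the acinar share of the counts differed between the genotypes was not tested.

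Mouse 1 of each genotype stood apart in some of these lists. The lymph node stroma markers summed to 11.3 CPM in Bach2KO mouse 1 and 5.04 CPM in Bach2WT mouse 1, and to between 0.403 and 1.57 CPM in the other mice except Bach2WT mouse 2, which lay just above that range. The B cell markers had their highest sums in the same mice of each genotype (2.11 and 5.95 CPM), and so did the adipocyte markers (21.2 and 24.2 CPM). Bach2WT mouse 1 was also the Bach2WT mouse with the highest B2m, H2-T23 and H2-Q4. Without mouse 1 of both genotypes, the log2 fold change was 0.62 for H2-K1, 0.64 for H2-D1, 1.12 for H2-T23 and 2.36 for H2-Q4, and the edgeR adjusted p of these 4 genes lay between 0.125 and 0.348. In that fit 5 of 8 heavy chains had an unadjusted p under 0.05 in edgeR and a higher level in Bach2KO mice. The same was the case for 488 of all 12767 genes tested. H2-T22 stood at -0.16.

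The genes whose pattern over the 8 libraries was most like that of the heavy chains were found from the mean log2 CPM of the 8 chains tested. This mean was 1.66, 1.66, 1.82 and 1.69 in Bach2KO mice and 1.05, 0.90, -0.19 and 0.32 in Bach2WT mice. Bach2WT mouse 3 had 1 count of H2-Q6 and 2 counts of H2-M3, which are near the limit of detection, and 32 counts of H2-Q4. For each of these genes its CPM was the lowest of the Bach2WT mice. The SD of the CPM of H2-K1, H2-D1 and H2-T22, in contrast, was larger in Bach2KO mice. Retnla had the highest Pearson correlation (r = 0.979 over 8 libraries), followed by Bex1, Tmem252, Phc2, Ctss, Utp6, Pigr and Efhd2 (r = 0.950). Ctss encodes cathepsin S, a protease of antigen processing, and Pigr the receptor that carries immunoglobulins across epithelia. After the mean of each genotype was subtracted, other genes came first, from Hvcn1 (r = 0.986) through Tmem237, Gpr4, Arid5b, Lnpk, Zswim3 and Gnpda1 to Thada (r = 0.939). The points share libraries, depth and normalisation, and these correlations are a description picked from 12820 genes.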

How the data were processed

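Pancreatic tissue of 4 Bach2KO and 4 Bach2WT mice was analysed by RNA-seq with paired-end reads of 150 bases. Genes and lists were chosen with earlier results of these data known. The submitters' processing notes name fastp, HISAT2 2.2.1, featureCounts 2.0.6 and build mm39. The strand setting, the handling of multi-mapping reads and the annotation release are not given in the sources used here. The authors deposited counts per gene without normalization and FPKM values, which are counts divided by 1 size factor per library and by gene length. Normalized counts, group means, fold changes and p-values of the authors' own comparison stand in the same table and were not used.

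Counts were compared with edgeR 4.0.16 in R 4.3.3 (quasi-likelihood test after TMM and filterByExpr, genotype as the sole term), fitted on all 8 libraries, with Benjamini-Hochberg adjustment over 12820 genes and a threshold of 0.05. The common dispersion was 0.192. The SE was obtained from the log2 fold change and the F statistic, and log2 CPM values of the correlations used a prior count of 2. A fitted fold change of a gene with few counts depends on the prior of the fit. Between 55.6% and 61.4% of counts from 20 to 200 were even, so single counts may not be independent fragments, and a floor of 3 counts covers counting error only. The procedure was also run on simulated data, drawn at the common dispersion with planted changes larger than those of H2-K1 and H2-D1. The changed genes were more abundant than H2-Q6, H2-Q7 and H2-M3. That run does not show how small changes or rare genes fare. Mice of a group were taken as separate animals from the labels. Other fits used DESeq2 1.42.0, other filters, RLE in place of TMM, totals without digestive enzymes, a term for sex, a replicate block, 7 libraries and, chosen after seeing the data, counts divided by 2 and 6 libraries without mouse 1 of both genotypes. Named were all heavy chains, B2m, Nlrc5, Irf1, Cd8a, Ptprc and Pecam1, and the 8 genes most like the heavy chains. Of other lists, up to 3 genes with the smallest p-values were named. The T cell, dendritic cell, eosinophil, neutrophil, stellate cell and fibroblast, hepatocyte, acinar cell and digestive enzyme lists were given as counts or sums only. Tap2, Psmb8, Psmb9, Psmb10, Calr, Canx, Pdia3, Rela, C1qa, Adgre1, Cd163 and the genes between H2-K1 and H2-M3 were named after their values were seen. A gene of the transactivator list is not reported here, and the counts and the median of that list leave it out.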

Additional observations from a re-analysis of the deposited data

How the results depend on the processing

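Over up to 17 alternatives in edgeR or DESeq2, the log2 fold change of H2-K1 lay between 0.39 and 0.62, of H2-D1 between 0.39 and 0.64, of H2-T23 between 0.81 and 1.12, of H2-Q4 between 1.55 and 2.36, of H2-Q6 between 1.68 and 3.11, of H2-Q7 between 2.03 and 3.09, of H2-M3 between 0.61 and 1.30 and of H2-T22 between -0.45 and -0.12, and no heavy chain tested changed direction. All of these fits scaled the libraries by TMM, RLE or DESeq2 size factors, and none by plain library totals. The number of heavy chains past the adjusted threshold was 0 in the edgeR fit of the report and 2 with DESeq2 (H2-Q4 and H2-T23). Without the filter on low counts it was 1 (H2-Q4, edgeR adjusted p = 0.00917). Over all genes, DESeq2 called 75 and edgeR without the filter 73. With at least 10 counts in every library, 5 heavy chains were left and their median log2 fold change was 0.54. Leaving out each library in turn, no gene tested passed the adjusted threshold in edgeR, heavy chains included. The median of the heavy chains lay between 0.75 and 1.076, and 4 to 6 of them were higher at an unadjusted p under 0.05. Over all genes tested, that number ran from 386 of 12530 (without Bach2KO mouse 1) to 757 of 13632 (without Bach2WT mouse 1). The H2-T22 share difference lay between -5.62 and -4.38 percentage points (-5.90 from CPM with all libraries). The cause of the difference between the tools was not tested.

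Same-numbered libraries of the genotypes correlated by 0.21, -0.03, -0.04 and -0.05 in their deviations from the group means. Libraries with different numbers were not compared, so these values do not settle whether the numbers pair the mice. With the replicate block in edgeR, 5 heavy chains were higher at an unadjusted p under 0.05, against 483 of all 12820 genes tested. None passed the adjusted threshold, and the median log2 fold change of the heavy chains was 1.11. With 2 mice per sex and genotype, differences between the sexes are poorly resolved, and H2-Q6, H2-Q7, H2-Q10 and H2-M3 are limited by their low counts.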
